A study of Mus musculus with 6 samples.

Results

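The EGF receptor family and its ligands were described across 6 RNA-seq libraries of sorted mouse mammary cells. The 10 genes were taken by symbol from 55291 symbols in the count data. They comprise 4 receptors (Egfr, Erbb2, Erbb3, Erbb4) and 6 ligands (Areg, Tgfa, Hbegf, Ereg, Nrg1, Nrg2), and 9 of the 10 passed the filter on low counts, Erbb4 being the exception. All cells came from Adgra3-lz/+ mice at 6 weeks of age, in puberty, whose single modified Adgra3 allele carries lacZ in place of part of the gene, so that β-galactosidase is fused to the adhesion receptor Gpr125, the product of Adgra3. Glands of 5 mice were pooled per sample. Cells with high CD49f, the integrin subunit encoded by Itga6 that marks basal cells, were separated by a fluorogenic β-galactosidase substrate into Gpr125+ and Gpr125-negative cells after exclusion of CD31+, CD45+ and Ter119+ cells. Gpr125+ cells were taken from the TEB-distal part of the gland, which holds the terminal end buds (TEBs) of the growing ducts, and from the nipple-proximal part, with 2 libraries each. The 2 Gpr125-negative libraries carry no region in their labels and served as reference for both regions. The reporter reads activity of the Adgra3 locus in mice that carry 1 modified allele, and mice without it were not analysed here. The comparisons addressed how Gpr125+ cells differ from Gpr125-negative cells and how Gpr125+ cells near the TEBs differ from those of the older ducts.

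ERBB receptors are tyrosine kinases that signal as dimers. EGFR binds amphiregulin, TGFα, HB-EGF and epiregulin, the neuregulins bind ERBB3 and ERBB4, ERBB2 has no known ligand of its own, and ERBB3 has little kinase activity and signals through its partner. The ligands are made as membrane-anchored precursors that metalloproteases release, and the activated receptors feed the ERK and PI3K pathways. In the pubertal mammary gland, amphiregulin made in hormone-sensing luminal cells is known to act through EGFR in the surrounding stroma to drive elongation of the ducts.

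Libraries held 20134890 to 37296640 counts, so that 3 counts, the floor used here, corresponded to 0.0804 to 0.149 CPM (read counts relative to the TMM-normalized library size). This floor covers counting error only. Replicates stood far apart, with a biological coefficient of variation of 0.967 across genes. Of all 17268 genes tested, 72.5% differed at least 2-fold between the 2 Gpr125-negative libraries, 61.3% between the TEB-distal and 33.1% between the nipple-proximal libraries. Adgra3 went against the labels: the pair labelled Gpr125-negative had 35.7 and 18.6 CPM, the TEB-distal pair 15.0 and 4.83 CPM and the nipple-proximal pair 19.2 and 12.3 CPM, and its log2 fold changes of -1.45 and -0.78 against the libraries labelled Gpr125-negative did not pass the test (adjusted p = 0.982 and 1, edgeR quasi-likelihood test). Itga6 was at 62.7 to 191 CPM in every library. With edgeR's quasi-likelihood test at an adjusted p below 0.1 and at least 2-fold, 0% of genes were called in each of the 3 comparisons. Nothing in the labels says that the pools came from separate groups of animals, so p-values measure the spread between these samples. In bulk samples, fewer cells of a type and less RNA per cell cannot be told apart.

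The promoters of Areg, Egfr and Erbb2 are shown because Areg had the highest mean level per length of the family and because Egfr and Erbb2 exchanged rank between replicate libraries. Entries of the RefSeq promoter set (GRCm38.p6) were read for 5 of the 10 genes. This number does not show that the set lacks the other genes. Each line gives the 250 bases that precede the start of the gene in that set, on the coding strand, 5′ to 3′. For Erbb2 that start lies inside the GENCODE gene given below, so that the last 14 bases of its line belong to the GENCODE gene, and no GENCODE transcript begins at the end of the line. Areg lies on the plus strand at chr5:91139349-91139598, Egfr on the plus strand at chr11:16751953-16752202 and Erbb2 on the plus strand at chr11:98412234-98412483. Capitals mark matches on either strand to a cAMP response element (TGACGTCA), a TATA box (TATAAA), a GC box (GGGCGG) or an AP-1 site (TGANTCA).
Areg: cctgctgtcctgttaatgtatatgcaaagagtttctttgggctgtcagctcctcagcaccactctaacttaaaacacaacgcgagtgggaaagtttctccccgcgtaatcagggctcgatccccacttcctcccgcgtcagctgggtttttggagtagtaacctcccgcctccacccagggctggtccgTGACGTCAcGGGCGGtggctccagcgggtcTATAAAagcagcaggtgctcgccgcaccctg
Egfr: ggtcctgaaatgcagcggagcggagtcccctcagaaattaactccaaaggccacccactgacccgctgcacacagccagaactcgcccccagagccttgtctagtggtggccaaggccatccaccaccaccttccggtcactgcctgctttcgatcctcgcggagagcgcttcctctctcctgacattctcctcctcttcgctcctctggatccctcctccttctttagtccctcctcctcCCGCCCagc
Erbb2: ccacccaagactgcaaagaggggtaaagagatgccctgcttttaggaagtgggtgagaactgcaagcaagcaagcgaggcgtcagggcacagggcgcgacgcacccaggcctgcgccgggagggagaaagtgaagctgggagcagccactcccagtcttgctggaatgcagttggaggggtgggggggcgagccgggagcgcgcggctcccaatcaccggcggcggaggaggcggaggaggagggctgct
The Areg window held a cAMP response element at -61 to -54, a GC box at -52 to -47 and a TATA box at -31 to -26, counted back from the start. None of the 3 matches overlapped another. The Egfr window held 1 GC box, on the minus strand at -9 to -4, and the Erbb2 window held no match to these letters. Of 32851 promoter windows of the same length, 1.55% held the cAMP response element, 12.4% the TATA box, 32.7% the GC box and 6.75% the AP-1 site. GC content was 57.2% for Areg, 60.8% for Egfr and 66.0% for Erbb2, against a median of 52.4% over all windows. A match is a description of letters and was not tested as a binding site.

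Among the receptors, Egfr and Erbb2 supplied most of the transcript in every library, but which of them led differed between replicates. Egfr (GRCm38 chromosome 11, 16752203 to 16918158, plus strand), a receptor for Areg, Tgfa, Hbegf and Ereg, had 13.6 and 152 CPM in the Gpr125-negative pair of libraries, 21.7 and 56.1 CPM in the TEB-distal pair and 51.2 and 86.8 CPM in the nipple-proximal pair. Both its lowest and its highest level were thus in libraries labelled Gpr125-negative, and all 3 groups overlapped. Erbb2 (chromosome 11, 98412470 to 98437716, plus strand), the preferred dimer partner of the other receptors, was at 55.2 and 6.03 CPM, 19.5 and 8.17 CPM, and 23.3 and 16.2 CPM in the same order. Its extremes lay in the same 2 libraries as those of Egfr, in the opposite order. Erbb2 shares exon sequence with Mien1 on the other strand, a gene at 57.6 to 123 CPM, and reads were counted without regard to strand, so reads from the shared stretch cannot be told apart.

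The ratio of Egfr to Erbb2, with levels divided by exon length, was 0.113 and 11.6 for the Gpr125-negative pair, 0.511 and 3.16 for the TEB-distal pair and 1.01 and 2.47 for the nipple-proximal pair. The 2 nipple-proximal libraries lay closest together, and their range fell inside that of the Gpr125-negative pair. Of the summed receptor level per length, Egfr took 9.02 and 92.0% in the Gpr125-negative pair, 21.8 and 73.6% in the TEB-distal pair and 48.7 and 66.5% in the nipple-proximal pair. The sum itself varied less than its makeup, from 6.74 CPM per kb in the second TEB-distal library to 14.6 CPM per kb in the second Gpr125-negative library.

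**Figure D1:**
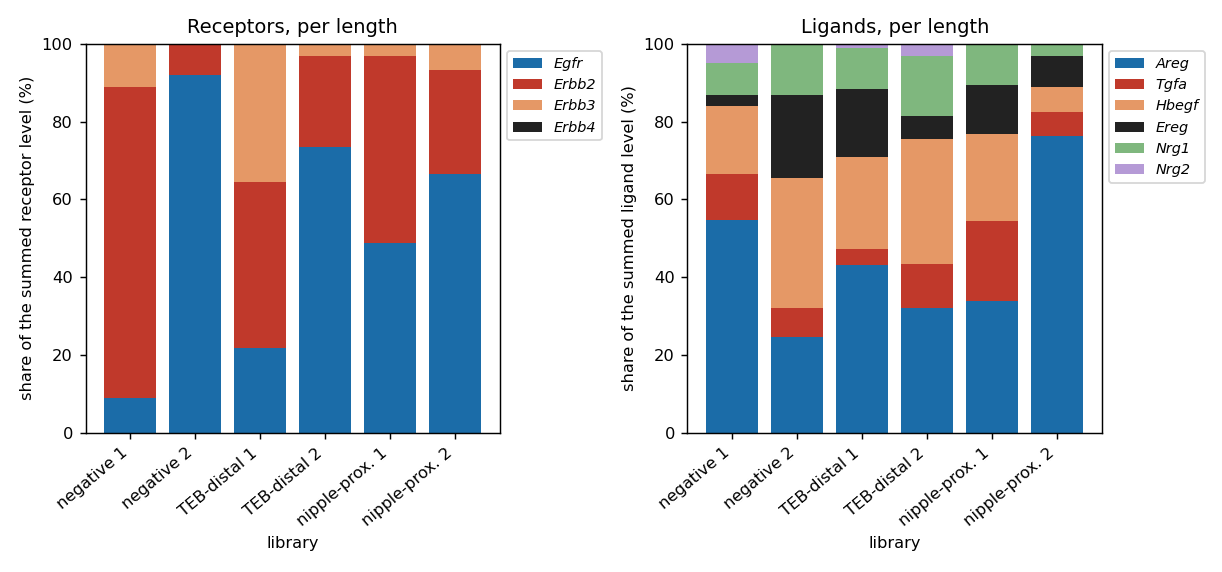
Stacked bars give the share, in percent, of each receptor (left) and each ligand (right) in the summed level per exon length of its class, with 1 bar for each of the 6 libraries. The Egfr share ran from 9.02 to 92.0% and both ends were libraries labelled Gpr125-negative, while Areg or Hbegf was the leading ligand in each library.

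Erbb3 and Erbb4, the neuregulin receptors, were low. Erbb3 (chromosome 10, 128567523 to 128589652, minus strand) had 8.82 and 0.0339 CPM in the Gpr125-negative pair of libraries, 18.8 and 1.23 CPM in the TEB-distal pair and 1.72 and 4.57 CPM in the nipple-proximal pair. The value of 0.0339 CPM was 1 count, which is below the floor. The first TEB-distal library was highest for Erbb3. It also held the highest summed level of 6 hormone-sensing luminal markers, at 214 CPM against 2.88 to 48.0 CPM in the other libraries. This sum came mostly from the prolactin receptor gene Prlr (116 CPM), Prom1 (46.4 CPM) and the estrogen receptor gene Esr1 (31.9 CPM), each highest there. The other markers did not stand out there. Cited1 was at 14.4 CPM against 39.4 CPM in the second TEB-distal library. Pgr was at 0.195 CPM against 1.67 CPM in the first nipple-proximal library. Foxa1 was at 4.80 CPM there and in the first Gpr125-negative library. The part of hormone-sensing luminal cells in the Erbb3 level was not tested. Erbb3 took 35.6% of the receptor level per length in the first TEB-distal library and at most 11.1% elsewhere. Erbb4 (chromosome 1, 68032186 to 69108059, minus strand) had 3 counts in the second TEB-distal library and 0 in the other 5, so it was not detectable above the floor and was not tested.

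Ligand transcript was present throughout, and per exon length it was led by Areg or Hbegf in each library. Areg (chromosome 5, 91139599 to 91148432, plus strand), the gene for amphiregulin, had 26.1 and 20.8 CPM in the Gpr125-negative pair of libraries, 37.2 and 19.1 CPM in the TEB-distal pair and 17.2 and 88.7 CPM in the nipple-proximal pair. Its lowest and highest level were both in nipple-proximal libraries. Tgfa (chromosome 6, 86195223 to 86275719, plus strand), the gene for TGFα, was at 30.5 and 34.5 CPM, 18.9 and 36.2 CPM, and 56.0 and 38.6 CPM in the same order. Both nipple-proximal libraries were above the other 4, and the first TEB-distal library was lowest. Across libraries Tgfa varied least of the tested genes, with a highest level 2.96 times its lowest.

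Hbegf and Ereg were both lowest or nearly so in the first Gpr125-negative library and highest in the second. Hbegf (chromosome 18, 36504927 to 36515805, minus strand), which encodes the heparin-binding ligand HB-EGF, had 33.1 and 113 CPM in the Gpr125-negative pair of libraries, 81.5 and 76.9 CPM in the TEB-distal pair and 44.9 and 30.0 CPM in the nipple-proximal pair. Ereg (chromosome 5, 91074622 to 91093646, plus strand), which encodes epiregulin, was at 4.91 and 61.5 CPM, 51.4 and 11.5 CPM, and 21.7 and 31.5 CPM. Hbegf replicates were close in the TEB-distal group, where those of Ereg were far apart. Ereg lies 45952 bp from Areg with 0 protein-coding genes between them, and the first Gpr125-negative library, lowest of all for Ereg, was above 3 others for Areg. Genes that overlap exons of Tgfa and Ereg reached at most 40 and 57 counts in any library.

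Of the neuregulins, Nrg1 was abundant and Nrg2 was at or under the floor in 3 of the 6. Nrg1 (chromosome 8, 31814551 to 32884029, minus strand), a ligand of ERBB3 and ERBB4, had 33.3 and 95.1 CPM in the Gpr125-negative pair of libraries, 79.3 and 79.3 CPM in the TEB-distal pair and 45.3 and 31.0 CPM in the nipple-proximal pair. Nrg2 (chromosome 18, 36017652 to 36197380, minus strand), a related ligand of the same receptors, had 279 and 0 counts in the Gpr125-negative pair, 54 and 139 counts in the TEB-distal pair and 3 and 0 counts in the nipple-proximal pair. Its levels were 6.00 and 0 CPM, 2.11 and 4.73 CPM, and 0.15 and 0 CPM. Nrg2 was therefore above the floor in both TEB-distal libraries and in 1 Gpr125-negative library, and at or under it in both nipple-proximal libraries.

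**Figure D2:**
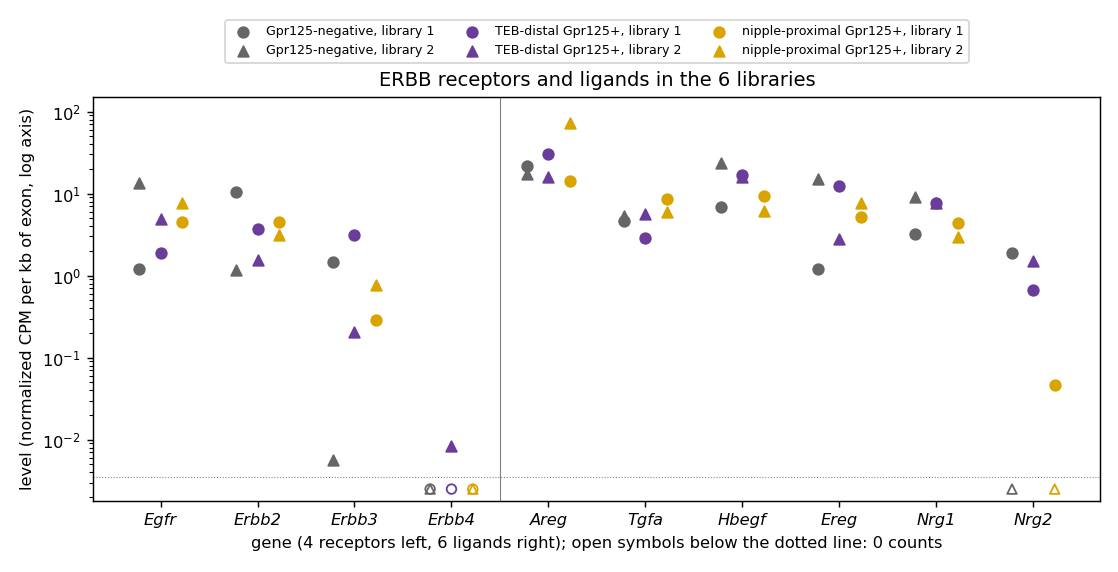
Points give the normalized level of each gene in each of the 6 libraries in CPM per kb of exon on a log axis, with colour for the group, shape for the replicate and open symbols for 0 counts. Egfr, Ereg and Erbb2 spread most between the 2 libraries labelled Gpr125-negative among genes that were above the floor in all libraries, and Tgfa spread least overall.

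Divided by exon length, the mean level over the 6 libraries was 28.7 CPM per kb for Areg (range 14.2 to 73.0), 13.1 for Hbegf (6.20 to 23.3), 7.37 for Ereg (1.19 to 14.9), 5.85 for Nrg1 (2.99 to 9.19), 5.62 for Egfr (1.20 to 13.5), 5.51 for Tgfa (2.91 to 8.63), 4.11 for Erbb2 (1.16 to 10.6), 0.974 for Erbb3 (0.00563 to 3.12), 0.690 for Nrg2 (0 to 1.91) and 0.00138 for Erbb4. The range of every gene overlapped that of its neighbour in this order. Overlap of ranges leaves out that 2 genes are read in the same library, so it does not show that neighbours are alike. Erbb2 was above Erbb3 within each of the 6 libraries, with 3.75 against 3.12 CPM per kb in the first TEB-distal library. The summed ligand level was 39.4 and 69.8 CPM per kb for the Gpr125-negative pair, 71.2 and 49.2 for the TEB-distal pair and 41.8 and 95.8 for the nipple-proximal pair, above the summed receptor level in all 6. Areg made up 24.5 to 76.2% of it, and Hbegf 6.48 to 33.4%. Areg led Hbegf in 4 of 6 libraries with the union of exons as length and in 3 of 6 with the longest transcript.

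Of the 9 tested genes, 6 had their highest level in a library labelled Gpr125-negative (42.7% of all genes), 5 their lowest (58.7%) and 4 both (20.6%). For Nrg2 the lowest level was a tie at 0 counts with the second nipple-proximal library. The replicates differed at least 2-fold for 7 of 9 genes in that group, for 5 in the TEB-distal and for 3 in the nipple-proximal group. These counts follow the order of the same shares over all genes given above.

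The sums of basal, endothelial and adipocyte markers did not overlap between the libraries labelled Gpr125-negative and the Gpr125+ libraries. The summed level of 12 basal markers, all of them detected in each library, was 3393 and 3554 CPM for the Gpr125-negative pair, 4017 and 23031 CPM for the TEB-distal pair and 9449 and 14952 CPM for the nipple-proximal pair. Single basal markers did not all follow this sum. Against the Gpr125-negative pair, 10 of the 12 had a positive log2 fold change for the TEB-distal pair and 11 for the nipple-proximal pair. Trp63 went the other way both times, at -2.27 (TEB-distal) and -1.31 (nipple-proximal). Krt5 was at -0.087 (TEB-distal) and 0.48 (nipple-proximal). The summed level of 12 endothelial markers was 1377 and 848 CPM, 19.7 and 22.1 CPM, and 241 and 27.7 CPM in the same order of groups. The endothelial cadherin gene Cdh5 had 138 and 59.3 CPM in the libraries labelled Gpr125-negative and 0.034 to 26.0 CPM in the others. The 5 adipocyte markers summed to 672 and 631 CPM in the Gpr125-negative and 1.65 to 23.6 CPM in the Gpr125+ libraries, nearly all of it Fabp4, which capillary endothelium also expresses, and 3 or 4 of the 5 were at 0 in each library. The sums of 11 luminal progenitor and alveolar markers (1472 to 3070 CPM), 8 fibroblast markers (40.9 to 213 CPM), 11 leukocyte markers (24.6 to 90.9 CPM) and 6 pericyte markers (1.67 to 24.4 CPM) overlapped between the groups, and 4 erythroid markers stayed at or below 1.32 CPM. The part of these cells in the levels of the receptors and ligands was not tested.

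When TEB-distal Gpr125+ cells were set against Gpr125-negative cells, no gene of the family passed the test and all groups overlapped. The log2 fold change was positive for 5 and negative for 4 of the 9 tested genes, with a median of 0.12 against 0.03 over all genes. For the receptors it was -1.09 for Egfr (SE 1.08, 95% interval -3.61 to 1.43), -1.15 for Erbb2 (SE 1.09) and 1.17 for Erbb3 (SE 2.11). For the ligands it lay between -0.24 for Tgfa (SE 0.68) and 0.30 for Nrg1 (SE 0.71). None of the 9 had an unadjusted p below 0.05 in edgeR's quasi-likelihood test, against 6.05% of all genes, and each had an adjusted p of 1. Both TEB-distal libraries were above both Gpr125-negative libraries for 0 of 9 genes (14% of all genes) and below them for 0 of 9 (10% of all genes). DESeq2 on the 4 compared libraries called 4% of genes and none of the 9. The interval for Egfr spans changes of more than 2-fold in either direction, so a difference of that size was not detectable with 2 libraries a group.

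For nipple-proximal Gpr125+ cells set against Gpr125-negative cells, none of the 9 genes passed the test by edgeR either. The log2 fold change was positive for Areg, at 1.17 (SE 0.90, 95% interval -0.91 to 3.26), and for Tgfa, at 0.54 (SE 0.68, 95% interval -1.04 to 2.12). It was negative for the other 7, with -0.27 for Egfr, -0.96 for Hbegf, -0.75 for Nrg1 and -5.28 for Nrg2 (SE 2.99), and its median was -0.50 against -0.0032 over all genes. Areg rested on 1 library, since without the second nipple-proximal library its log2 fold change was -0.43. None of the 9 had an unadjusted p below 0.05 by edgeR's quasi-likelihood test, against 3.55% of all genes, and each adjusted p was 1. Tgfa was the 1 gene with both nipple-proximal libraries above both Gpr125-negative libraries (19.9% of all genes), and 0 of 9 were below them (10.8% of all genes). DESeq2 on the 4 compared libraries called 2.02% of genes and none of the 9. The reference libraries are the same in both of these comparisons.

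**Figure D3:**
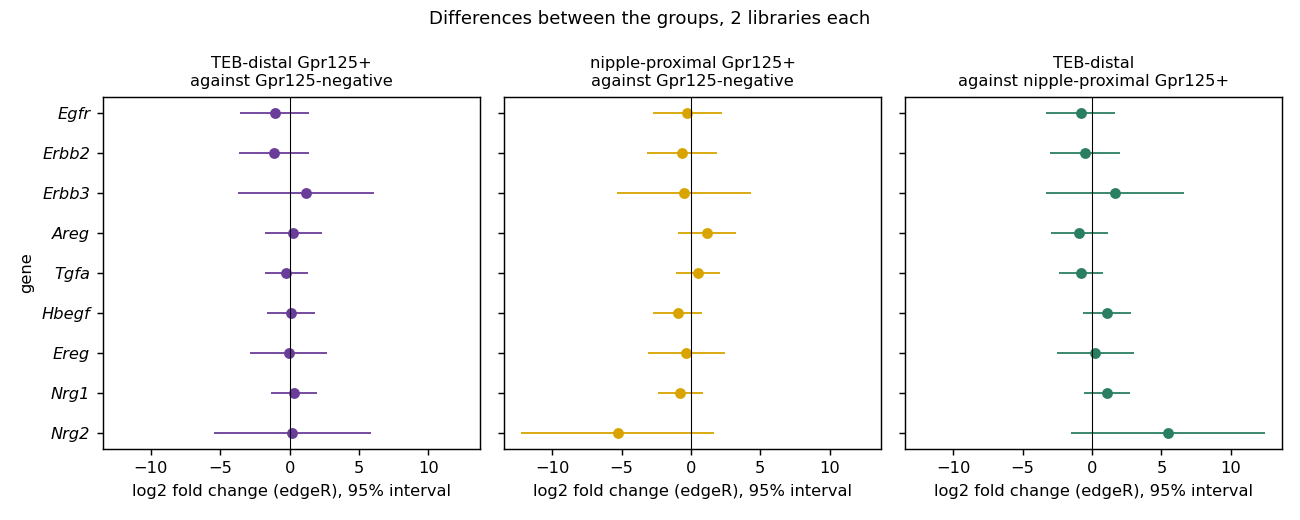
Points give the edgeR log2 fold change of each of the 9 tested genes with its 95% interval, in 1 panel for each of the 3 comparisons. Every interval crosses 0, and those of Erbb3 and Nrg2 are the widest.

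Between the 2 regions of Gpr125+ cells, 4 ligands had groups that did not overlap. Such a gap was common, since 15.2% of all genes were higher and 18.3% lower in TEB-distal libraries without overlap. Hbegf averaged 79.2 ± 3.22 CPM (SD, n = 2) in TEB-distal and 37.5 ± 10.6 CPM (SD, n = 2) in nipple-proximal libraries, a log2 fold change of 1.08 (SE 0.75, 95% interval -0.67 to 2.83). Nrg1 averaged 79.3 ± 0.0398 CPM and 38.2 ± 10.1 CPM (SD, n = 2 each), a log2 fold change of 1.06 (SE 0.72, 95% interval -0.60 to 2.72). Both genes had each TEB-distal library above each nipple-proximal library, and both kept a positive sign when any 1 library was left out (0.80 to 1.40 for Hbegf and 0.79 to 1.35 for Nrg1). Tgfa went the other way, with 27.5 ± 12.2 CPM in TEB-distal and 47.3 ± 12.3 CPM in nipple-proximal libraries (SD, n = 2 each), a log2 fold change of -0.78 (SE 0.69, 95% interval -2.37 to 0.81). None passed edgeR's quasi-likelihood test, in which the unadjusted p was 0.190 for Hbegf, 0.180 for Nrg1 and 0.289 for Tgfa and each adjusted p was 1.

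Nrg2 had 193 counts over both TEB-distal and 3 counts over both nipple-proximal libraries, a normalized ratio of 48.6 with a 95% counting interval of 16.4 to 238. This interval covers counting error and leaves out the spread between libraries. In edgeR's quasi-likelihood test the log2 fold change was 5.46 (SE 3.02, 95% interval -1.55 to 12.5) with an unadjusted p of 0.110 and an adjusted p of 1. DESeq2 on the 4 compared libraries gave 5.58 with an adjusted p of 0.0498, which made Nrg2 the 1 of 9 genes called there, against 2.29% of all genes. DESeq2 on all 6 libraries gave an adjusted p of 0.568, and over all alternatives the adjusted p of Nrg2 ran from 0.0498 to 1 and the log2 fold change from 4.48 to 9.70. Nrg2 is labelled on the study's own plot of this comparison, made from these same libraries, so its direction here is not independent evidence.

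**Figure D4:**
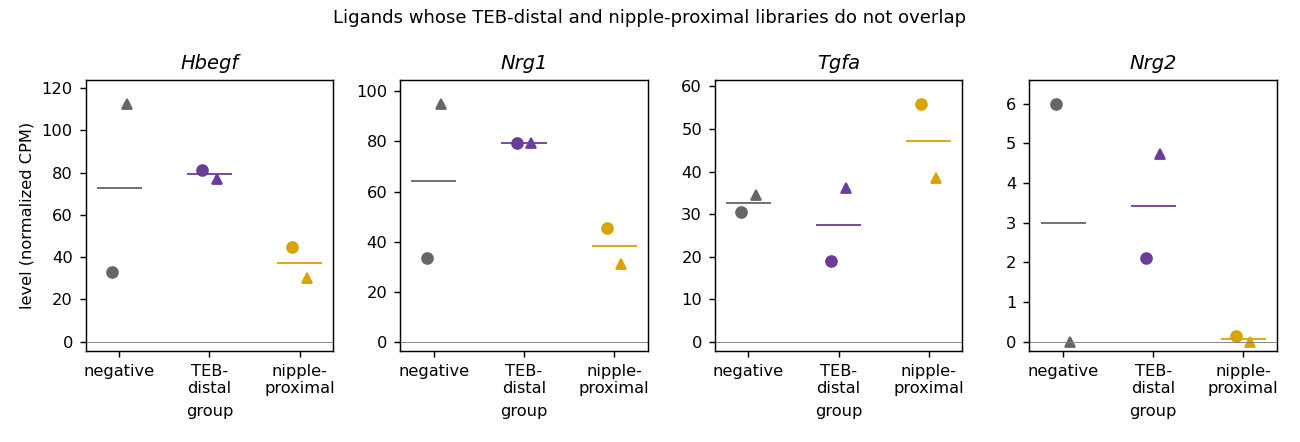
Points give the normalized level in CPM of the 4 ligands whose TEB-distal and nipple-proximal libraries did not overlap, with horizontal lines for the group means of 2 libraries. Of all genes, 15.2% were higher and 18.3% lower in TEB-distal libraries without overlap. For Hbegf and Nrg1 1 library labelled Gpr125-negative lies above both TEB-distal libraries and the other between the nipple-proximal libraries, while Nrg2 was at 0.15 and 0 CPM in nipple-proximal libraries.

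In this regional comparison both TEB-distal libraries were above both nipple-proximal libraries for 3 of 9 genes (15.2% of all genes) and below them for 1 of 9 (18.3% of all genes). None of the 9 had an unadjusted p below 0.05 by edgeR, against 2.21% of all genes. The remaining log2 fold changes were -0.83 for Egfr, -0.51 for Erbb2, 1.67 for Erbb3, -0.91 for Areg and 0.24 for Ereg, all with overlapping groups, and the median of the 9 was 0.24 against 0.06 over all genes. An exact permutation test of 2 against 2 libraries cannot give a two-sided p below 0.333, so none was run on single genes.

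The other genes of the pathway were taken from 5 lists of 46 genes, of which 44 were tested. None was called by edgeR in any comparison, and 4, 1 and 1 of the 44 had an unadjusted p below 0.05 for TEB-distal against Gpr125-negative, nipple-proximal against Gpr125-negative and TEB-distal against nipple-proximal cells, where the shares of all genes were 6.05, 3.55 and 2.21%. The median log2 fold change over the 44 was 0.08, 0.10 and -0.06. The lists as a whole were therefore centred near 0, as all genes were.

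Among other ligands, Epgn, the gene for epigen, had 10.1 and 14.7 CPM in the Gpr125-negative pair of libraries, 118 and 20.1 CPM in the TEB-distal pair and 10.1 and 31.1 CPM in the nipple-proximal pair. Its log2 fold change was 2.47 against the Gpr125-negative libraries in TEB-distal cells (unadjusted p 0.0444, adjusted p = 0.815 by edgeR), and the first TEB-distal library set most of it. Btc, the gene for betacellulin, was at 0 to 3.01 CPM and Nrg4 at 0 to 6.98 CPM. Egf reached 3 counts in 1 library and Nrg3 was at 0 counts in all, so neither was above the floor. The 3 tested members had medians of 1.09, 0.73 and 1.74 in the 3 comparisons, in the order given above.

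Of 7 genes for ligand release, metalloproteases and their partners, 2, 3 and 3 had positive log2 fold changes, with medians of -0.32, -0.26 and -0.30. Adam9, a membrane metalloprotease, had log2 fold changes of -1.09 (TEB-distal) and 0.57 (nipple-proximal) against Gpr125-negative cells and -1.66 between the regions. It was at 29.1 and 90.3 CPM, 36.4 and 19.7 CPM, and 47.8 and 129 CPM in Gpr125-negative, TEB-distal and nipple-proximal libraries. Both Gpr125+ groups overlapped the Gpr125-negative libraries. The TEB-distal libraries lay below the nipple-proximal libraries without overlap, as did those of 18.3% of all genes.

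The 11 genes for receptor adaptors and docking proteins had 3 positive log2 fold changes in each comparison, with medians of -0.63, -0.34 and -0.29. Gab2, a docking protein downstream of receptor tyrosine kinases, had 20.6 and 25.4 CPM in the Gpr125-negative pair of libraries, 1.09 and 0.24 CPM in the TEB-distal pair and 8.10 and 7.91 CPM in the nipple-proximal pair. The 3 groups did not overlap, and the log2 fold change was -5.10 for TEB-distal against Gpr125-negative cells (SE 1.26, unadjusted p 0.00383, adjusted p = 0.803 by edgeR) and -3.58 between the regions (SE 1.18, unadjusted p 0.0163, adjusted p = 1 by edgeR). Its relative Gab1 was at 19.2 and 10.4 CPM, 81.8 and 51.3 CPM, and 49.2 and 54.0 CPM, with log2 fold changes of 2.17 in TEB-distal (SE 0.69, unadjusted p 0.0141, adjusted p = 0.803 by edgeR) and 1.80 in nipple-proximal cells (SE 0.68, unadjusted p 0.0302, adjusted p = 1 by edgeR). Both Gpr125+ groups thus lay above the Gpr125-negative libraries for Gab1, as did 14% (TEB-distal) and 19.9% (nipple-proximal) of all genes. For Gab2 both lay below them, as did 10% (TEB-distal) and 10.8% (nipple-proximal) of all genes. The TEB-distal libraries lay below the nipple-proximal libraries for Gab2, as for 18.3% of all genes. Neither gene passed the adjusted threshold.

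Among 11 attenuators, which end or damp receptor signalling, 5, 7 and 3 log2 fold changes were positive and the medians were -0.0049, 0.14 and -0.12. Socs4, a suppressor of cytokine signalling that acts on EGFR, had the largest change against Gpr125-negative cells among genes with a mean of at least 5 CPM. Its log2 fold change was 1.51 in TEB-distal (unadjusted p 0.0897, adjusted p = 0.873 by edgeR) and 1.21 in nipple-proximal cells, where Lrig3 was at 1.20. The TEB-distal pair had 89.1 and 25.9 CPM of Socs4 against 16.9 and 23.6 CPM in the Gpr125-negative pair, so the first TEB-distal library set most of that change. Of 12 output genes of the ERK pathway, 11, 9 and 7 had positive log2 fold changes, with medians of 0.64, 0.56 and 0.12. Dusp5, a phosphatase that acts on nuclear ERK, had 16.7 and 33.0 CPM in the Gpr125-negative pair of libraries, 44.5 and 148 CPM in the TEB-distal pair and 57.9 and 52.7 CPM in the nipple-proximal pair. Its log2 fold changes against Gpr125-negative cells were 1.95 in TEB-distal (unadjusted p 0.0406, adjusted p = 0.815 by edgeR) and 1.15 in nipple-proximal cells. Its groups did not overlap in either comparison. The same held for 14% (TEB-distal) and 19.9% (nipple-proximal) of all genes, which were higher without overlap. No member of these lists was called.

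**Figure D5:**
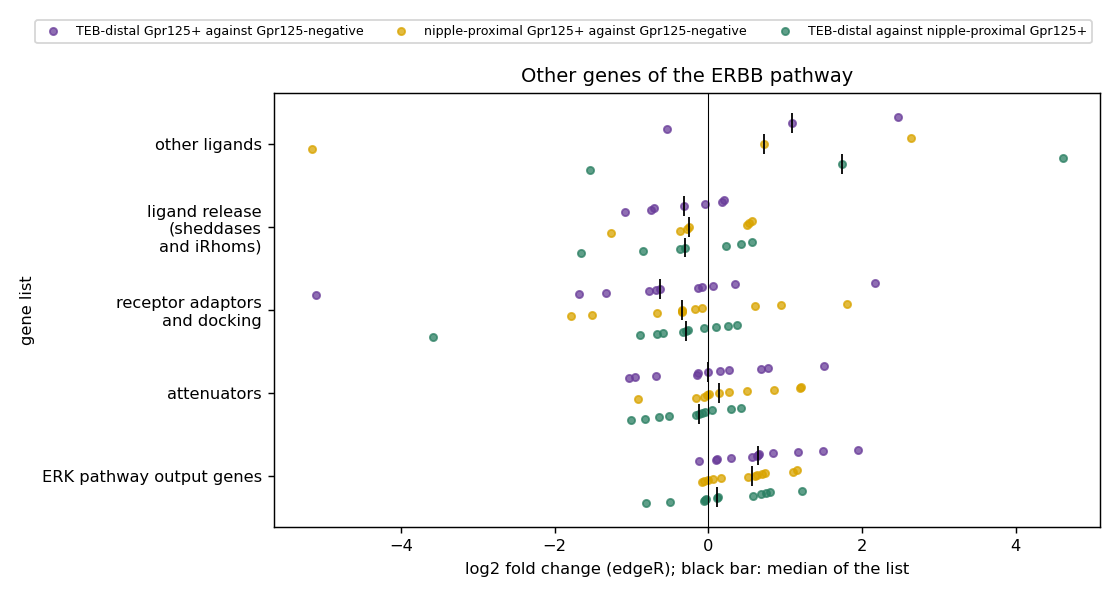
Points give the edgeR log2 fold change of each tested gene of the 5 pathway lists, with 1 colour for each comparison and a black bar for the median of the list. The ERK output genes lie mostly right of 0 against the Gpr125-negative libraries, and Gab2 is the adaptor gene at -5.10 and -3.58.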

How the data were processed

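RNA of sorted mammary cells was read as 6 libraries made with a full-length low-input kit without molecular identifiers. The deposited files hold whole-number read counts per gene, which the authors made by alignment to mm10 (STAR, named as v2.5.0c in the methods and as 2.7.3 in the submitters' processing notes) and unstranded counting (HTSeq v0.6.0). The annotation release is not given in the sources used here. Total counts were 20134890 to 37296640 per library.

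Samples were grouped by their titles. Counts of all 6 libraries were fitted together by the robust quasi-likelihood test of edgeR 4.0.16 (R 4.3.3) after filterByExpr and TMM normalization. This left 17268 genes, over which p-values were adjusted (Benjamini-Hochberg), and a call needed an adjusted p below 0.1 and at least 2-fold. Levels are CPM of the TMM-normalized library size. Levels between genes were divided by the union of exons in GENCODE M21 (GRCm38), which held 96.4% of the 55291 symbols. Alternatives were DESeq2 1.42.0, other size factors, no filter, a fit on the compared libraries, a replicate block, leaving out each library and the longest transcript as length.

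The members and the gene lists were chosen with earlier results of these data known. All 10 members are given in every library. Of each pathway list at most 2 genes per comparison are named, those with the largest absolute log2 fold change at a mean of at least 5 CPM, and other ligands are given by their values. No 2 libraries held the same counts. The sum of 1 marker list is not reported here.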

Additional observations from a re-analysis of the deposited data

How the results depend on the processing

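Of 323 values of the 27 log2 fold changes of the family under 12 alternatives, 293 kept their direction and their side of the threshold, 29 changed sign and 1, Nrg2 with DESeq2 on the 4 compared libraries, passed the threshold (log2 fold change 5.58). No sign change was a call, and 25 of the 29 came from leaving out 1 library. Nrg2 did not pass the low-count filter when edgeR was fitted on the nipple-proximal and Gpr125-negative libraries alone.

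The number of genes called, 0 in each comparison by edgeR with 1045, 613 and 381 genes at an unadjusted p below 0.05, depended on the tool and on single libraries. For TEB-distal against Gpr125-negative, nipple-proximal against Gpr125-negative and TEB-distal against nipple-proximal cells it was 137, 58 and 39 without a low-count filter, 943, 321 and 129 when DESeq2 was run on all 6 libraries, and 667, 317 and 360 when it was run on the 4 compared. Leaving out 1 library gave 0 to 747, 0 to 335 and 0 to 12 genes. The 747 and 335 were reached without the first library labelled Gpr125-negative, where a lone sample is assumed to vary like the other groups, and the cause was not tested.

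Leaving out each library in turn, the log2 fold changes that changed sign for TEB-distal against Gpr125-negative cells ran from -2.09 to 1.51 for Egfr, -2.00 to 1.06 for Erbb2, -1.82 to 7.87 for Erbb3, -0.30 to 0.66 for Areg, -0.79 to 0.14 for Tgfa, -0.64 to 1.25 for Hbegf, -1.57 to 2.67 for Ereg, -0.39 to 1.25 for Nrg1 and -0.82 to 9.42 for Nrg2. For nipple-proximal against Gpr125-negative cells they ran from -1.28 to 2.35 for Egfr, -1.48 to 1.58 for Erbb2, -1.48 to 6.21 for Erbb3, -0.43 to 1.92 for Areg, -1.72 to 0.18 for Hbegf, -1.35 to 2.44 for Ereg, -1.45 to 0.20 for Nrg1 and -9.52 to 3.96 for Nrg2. Between the regions they ran from -1.28 to 2.56 for Erbb3, -1.66 to 0.69 for Areg and -1.14 to 0.93 for Ereg. Tgfa against Gpr125-negative in nipple-proximal cells, and Egfr, Erbb2, Tgfa, Hbegf, Nrg1 and Nrg2 between the regions, kept their sign in every alternative run.

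Pairing of libraries by replicate number was not shown, with correlations of same-numbered deviations of -0.035, 0.194 and -0.0049. With 2 libraries a group these correlations cannot exclude a shared pool or sort. The replicate block left 0 genes called in each comparison and changed 4 signs, Ereg for TEB-distal against Gpr125-negative cells (0.40), Egfr (0.42) and Erbb3 (2.59) for the nipple-proximal comparison with them, and Erbb3 between the regions (-0.76). With the longest transcript as length, 7 of 60 shares moved by more than the spread between replicates. Counts were at or under the floor for Erbb4 in all libraries and for Nrg2 in both nipple-proximal libraries and the second Gpr125-negative library. The same held for Erbb3 in the second Gpr125-negative library.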

Other observations

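Hbegf and Nrg1, ligand genes on different chromosomes, kept nearly the same ratio of CPM in every library. The ratio was 0.995 and 1.18 for the pair labelled Gpr125-negative, 1.03 and 0.970 for the TEB-distal pair and 0.991 and 0.968 for the nipple-proximal pair, although each gene varied more than 3-fold. Its highest value was 1.22 times its lowest, the smallest spread among 28 pairs of family genes, and the next pair, Tgfa and Nrg1, spread 5.22-fold. The pair was chosen after its values were seen, the levels share library and depth, and no test was run.

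The first library labelled Gpr125-negative, lowest for Egfr and Ereg, was also lowest for several inhibitors of the pathway. Errfi1, which encodes an inhibitor of EGFR, was at 92.2 CPM there and at 420 to 515 CPM in the other 5 libraries, and Dusp6, an ERK phosphatase, was at 57.7 CPM against 101 to 252 CPM. Socs4 (16.9 against 23.6 to 89.1 CPM), Cbl (24.2 against 25.9 to 38.9 CPM) and Dusp5 (16.7 against 33.0 to 148 CPM) were lowest there. Not all inhibitors did so, and Lrig1, a negative regulator of ERBB receptors, was highest in that library at 60.4 CPM against 7.28 to 20.1 CPM. These genes were picked with their values in view, and no difference was tested.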
